A study of Mus musculus with 3 samples.

Results

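Broad promoter domains were regions of ubiquitinated histone H2A (H2AK119ub) that the authors classed as promoter, that were at least 20 kb wide in replicate 1, and that shared at least 1 bp with a region of replicate 2. They were thus chosen by width in replicate 1, class and overlap, which are given as descriptions. There were 374 of them, 13.8% of the 2701 promoter regions and 4.77% of all 7838 regions of replicate 1. They held 11.9 Mb, 19.9% of the length that all replicate 1 regions covered. Chromatin immunoprecipitation and sequencing (ChIP-seq) had been carried out on 2 H2AK119ub libraries, described by the submitters as biological replicates, and 1 input library. All 3 came from the tongue epithelium of mice with the genotype control at postnatal day 0, dissociated after removal of the posterior circumvallate papillae and sorted for the epithelial surface protein EpCAM. The submitters call the cells basal and the tissue non gustatory. Input values are not analysed here. The lists hold positions, location classes and gene names without heights, scores or read counts. Depth is therefore unknown, and 2 replicates of 1 group give no group contrast to test. The values below are therefore descriptions, and intervals on shares are exact (Clopper-Pearson) 95% binomial intervals that cover counting error only.

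H2AK119ub is added by Polycomb repressive complex 1 (PRC1), whose catalytic subunits are encoded by Ring1 and Rnf2, and the mark lies over genes that are held silent or poised. In mammals variant forms of the complex are brought to unmethylated CpG islands by the CpG-binding protein encoded by Kdm2b, and broad Polycomb domains are known to cover genes of developmental regulators. In the tongue, cells sorted for EpCAM comprise mainly keratinocytes of the lining epithelium, and the sort can also hold taste bud and Merkel cells. The lists give no transcript levels, so the tissue could not be checked against expressed markers.

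The promoter windows of 6 genes named by domains are shown because they span the range of CpG content, the feature to which variant PRC1 is recruited. Each window is 300 bases from RefSeq (GRCm38.p6), from 250 bases before to 50 after the transcription start, written 5′ to 3′ on the gene's strand with every CpG in capitals. Hand2, a transcription factor gene of heart and limb, and Foxd1, a forkhead factor gene of kidney stroma, had the widest domains with a window in their families. Pou4f1, a factor gene of sensory neurons, and the ligand gene Wnt11 had the highest ratio of observed to expected CpG among the windows whose start lay inside a region of each replicate, and Krt13, a keratin of the differentiated oral lining, and Hmx2, a homeobox gene of the inner ear, had the lowest.
Hand2, chr8:57320733-57321032, plus strand: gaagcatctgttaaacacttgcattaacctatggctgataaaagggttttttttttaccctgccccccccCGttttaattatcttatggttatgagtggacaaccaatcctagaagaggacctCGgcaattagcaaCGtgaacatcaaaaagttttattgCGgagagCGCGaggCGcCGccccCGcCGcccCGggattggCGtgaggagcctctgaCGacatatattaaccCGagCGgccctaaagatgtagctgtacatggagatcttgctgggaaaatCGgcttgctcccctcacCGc
Foxd1, chr13:98353995-98354294, plus strand: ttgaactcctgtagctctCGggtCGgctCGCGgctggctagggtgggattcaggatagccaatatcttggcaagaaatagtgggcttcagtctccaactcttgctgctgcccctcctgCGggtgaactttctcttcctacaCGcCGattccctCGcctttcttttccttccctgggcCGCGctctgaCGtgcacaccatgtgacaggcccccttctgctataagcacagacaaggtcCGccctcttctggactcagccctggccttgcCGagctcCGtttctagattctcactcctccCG
Pou4f1, chr14:104467950-104468249, minus strand: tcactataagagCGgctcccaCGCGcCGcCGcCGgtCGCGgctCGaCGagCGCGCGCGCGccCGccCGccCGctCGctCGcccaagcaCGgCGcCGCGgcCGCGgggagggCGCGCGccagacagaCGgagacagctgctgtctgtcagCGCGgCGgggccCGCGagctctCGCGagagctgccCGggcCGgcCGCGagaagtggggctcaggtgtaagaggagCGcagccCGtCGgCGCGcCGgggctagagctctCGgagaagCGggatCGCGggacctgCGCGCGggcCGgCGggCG
Wnt11, chr7:98834862-98835161, plus strand: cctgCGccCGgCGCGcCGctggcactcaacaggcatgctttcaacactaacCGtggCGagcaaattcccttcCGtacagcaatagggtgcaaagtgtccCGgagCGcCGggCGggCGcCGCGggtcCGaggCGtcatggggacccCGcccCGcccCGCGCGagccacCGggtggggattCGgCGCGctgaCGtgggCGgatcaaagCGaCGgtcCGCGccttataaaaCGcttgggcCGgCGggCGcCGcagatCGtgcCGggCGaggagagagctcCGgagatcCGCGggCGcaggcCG
Krt13, chr11:100121517-100121816, minus strand: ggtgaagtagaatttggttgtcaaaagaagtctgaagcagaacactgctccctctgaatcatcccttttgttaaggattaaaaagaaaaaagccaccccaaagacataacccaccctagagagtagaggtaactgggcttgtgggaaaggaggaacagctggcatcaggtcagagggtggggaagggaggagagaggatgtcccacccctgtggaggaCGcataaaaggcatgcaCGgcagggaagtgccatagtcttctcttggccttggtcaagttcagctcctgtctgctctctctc
Hmx2, chr7:131548507-131548806, plus strand: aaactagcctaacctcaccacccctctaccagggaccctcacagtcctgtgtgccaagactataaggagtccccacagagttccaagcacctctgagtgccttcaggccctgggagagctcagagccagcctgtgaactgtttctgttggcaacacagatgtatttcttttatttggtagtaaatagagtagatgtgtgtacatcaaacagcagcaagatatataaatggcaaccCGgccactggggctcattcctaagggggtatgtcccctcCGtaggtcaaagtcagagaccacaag
The windows of Pou4f1 and Wnt11 held 57 and 45 CpG, those of Hand2 and Foxd1 17 and 15, and those of Krt13 and Hmx2 2 each, while the median over the 32851 windows of the table was 7. The observed to expected ratio was 1.24 for Pou4f1, 1.18 for Wnt11, 0.897 for Hand2, 0.624 for Foxd1 and 0.107 for both Krt13 and Hmx2, against a median of 0.384. The start of Hand2 had 15.7 kb of its replicate 1 domain upstream and 40.9 kb downstream, and 15.6 and 41.0 kb in replicate 2. The start of Pou4f1 had 8.47 kb upstream and 13.4 kb downstream in replicate 1, and 7.44 and 14.0 kb in replicate 2. The start of Krt13 had 17.02 kb upstream in replicate 1 and 2.25 kb in replicate 2, where its region ended before that of Krt15. Hmx2 lay 11.8 kb from the upstream edge in replicate 1 and 15.0 kb in replicate 2, in a domain that also named its neighbour Hmx3. A comparison of CpG content over all members was void, because 353 of the 493 protein-coding genes named (71.6%) had a window, under the 80% set for such a comparison.

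Members of 3 families of microRNAs, short RNAs that repress messages matched by bases 2 to 8 (the seed), were also named by domains, and their mature sequences are shown with the seed in capitals.
miR-9-5p, from Mir9-1, Mir9-2 and Mir9-3: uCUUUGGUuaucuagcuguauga
miR-196a-5p, from Mir196a-1 and Mir196a-2: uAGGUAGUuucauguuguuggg
miR-196b-5p, from Mir196b: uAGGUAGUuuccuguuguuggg
miR-10a-5p, from Mir10a: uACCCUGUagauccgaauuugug
miR-10b-5p, from Mir10b: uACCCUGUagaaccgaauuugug
All 3 genes of the RefSeq table with the miR-9-5p seed were named, as were all 3 with the miR-196 seed and both with the miR-10 seed. The Mir9 genes, whose product is known for its role in neural progenitors, lay in domains that named no protein-coding gene. These measured 32.5 kb in replicate 1 and 29.6 kb in replicate 2 at Mir9-1, 37.1 and 31.4 kb at Mir9-2, and 31.6 and 29.4 kb at Mir9-3. Replicate 2 covered 91.0%, 81.0% and 91.2% of them. The Mir196 and Mir10 genes lie within Hox clusters and shared the Hox domains. In all, domains named 30 microRNA genes, of which 29 had a mature sequence in the table. The share of all annotated microRNA genes that domains named was not worked out. The counts of the families and of all microRNA genes therefore have no background beside them, and are descriptions only. Among the others, Mir126a and Mir126b lay with Egfl7, an endothelial gene, in a domain of 32.2 kb of which replicate 2 covered 17.1%, and the replicate 2 region named Egfl7 only.

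The domains were skewed in width. In replicate 1, which chose them, the median was 27.5 kb (quartiles 23.5 and 34.6 kb) and the widest was 192 kb. There were 54 domains of 40 kb or more, 94 of 30 to 40 kb and 226 of 20 to 30 kb. The narrowest members were those of 6330409D20Rik (20101 bp), Nr5a2, a nuclear receptor gene (20145 bp), and the LIM homeobox gene Lhx8 with AI606473 (20168 bp). Just outside stood the shared promoter regions of Gas2l2 (19962 bp), of Mdk with Chrm4 (19943 bp) and of Tle4 (19861 bp). A further 22 promoter regions of 20 kb or more had no replicate 2 region over them, the widest at Trim2 (52.8 kb), Slco4a1 (43.9 kb) and Nos3 with Kcnh2 (41.1 kb). They also included Wnt3a (21.4 kb), the Notch ligand gene Jag2 (34.3 kb) and the laminin gene Lamb1 (33.0 kb). Thus 94.4% of promoter regions of 20 kb or more were shared (91.7 to 96.5%), against 70.2% of narrower ones (68.2 to 72.0%). Overlap is likelier for wider regions by construction.

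**Figure D1:**
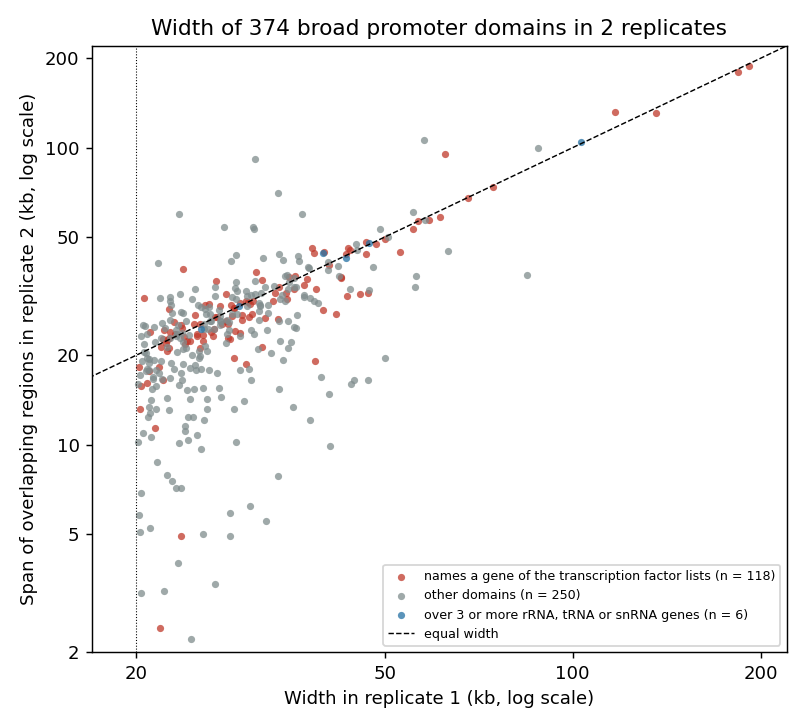
Width of each of the 374 domains in replicate 1 (x axis, kb, log scale) against the span of the replicate 2 regions that overlap it (y axis, kb, log scale). Red points name a gene of the transcription factor lists, blue points lie over 3 or more rRNA, tRNA or snRNA genes, grey points are the other domains, the dashed line marks equal widths and the dotted line the 20 kb limit. Most points lie near or below the dashed line, and those far below it are mainly grey.

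Replicate 2 width was not used to choose the domains. The replicate 2 span, measured between the outermost bases of all regions that met a domain, had a median of 25.4 kb (quartiles 18.3 and 32.4 kb), and 264 of 374 spans (70.6%, 65.7 to 75.2%) were themselves 20 kb or more. The span was narrower than the replicate 1 width in 251 domains (67.1%), and the median ratio was 0.928. Because the domains were picked for their width in replicate 1, a lower value in replicate 2 follows in part from the choice. With the same rule started from replicate 2, 282 domains were found and the median ratio of replicate 1 span to replicate 2 width was 1.04. The rank correlation of the widths was 0.65 over the 374 domains (Spearman), within a range cut off at 20 kb in replicate 1. Replicate 2 regions covered a median of 84.5% of a domain (quartiles 63.4 and 94.9%) and 78.1% of the summed length. At least 90% was covered in 147 domains (39.3%), and less than 50% in 58 (15.5%). Shared promoter regions of 10 to 20 kb had a median cover of 75.5%, those of 5 to 10 kb 73.2%, and those under 5 kb 86.9%.

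**Figure D2:**
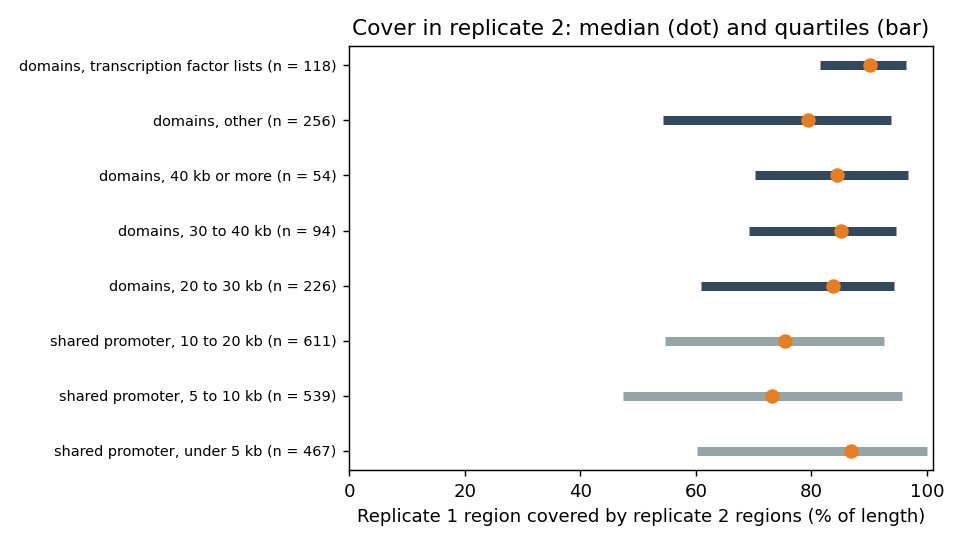
Share of each replicate 1 region covered by replicate 2 regions (x axis, % of length) as median (dot) and quartiles (bar) for subsets of the domains (dark) and for narrower shared promoter regions (grey). The median was 90.2% for domains that named a gene of the transcription factor lists and 79.4% for the others, and it was 83.8 to 85.2% in each width class of the domains.

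Few domains had the same edges in both replicates. The start of the replicate 2 span lay within 1 kb of the domain's start in 122 domains (32.6%) and the end within 1 kb in 31.8% of them, while both lay within 1 kb in 37 (9.89%, 7.06 to 13.4%) and within 5 kb in 196 (52.4%). The median distance over all starts and ends was 2142 bp. Replicate 2 ended inside the domain at both edges in 137 domains (36.6%) and reached beyond it at both in 48 (12.8%). The 5 domains whose edges coincided best were those of Hes3 with Icmt and Gpr153 (starts 50 bp and ends 37 bp apart over 28.7 kb), Nkx6-1 (118 and 60 bp over 30.2 kb), Hand2 (59 and 149 bp over 56.6 kb), Six6 (173 and 61 bp over 22.4 kb) and Neurog2 (34 and 273 bp over 28.7 kb). Each of them names a gene of the transcription factor lists, as did 118 of all 374 domains (31.6%). These 5 were picked as the extremes of edge distance and are a description only. Nkx6-1 acts in pancreas and spinal cord, Six6 in the eye and Neurog2 in neurogenesis. The 5 with the most distant edges were those of the long noncoding RNA gene B930092H01Rik, of which the start differed by 56.8 kb, of Flrt1, an adhesion gene, whose end lay 46.7 kb further out in replicate 2, of Lbhd2 with Exoc3l4, of Gse1 and of Tbx1.

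**Figure D3:**
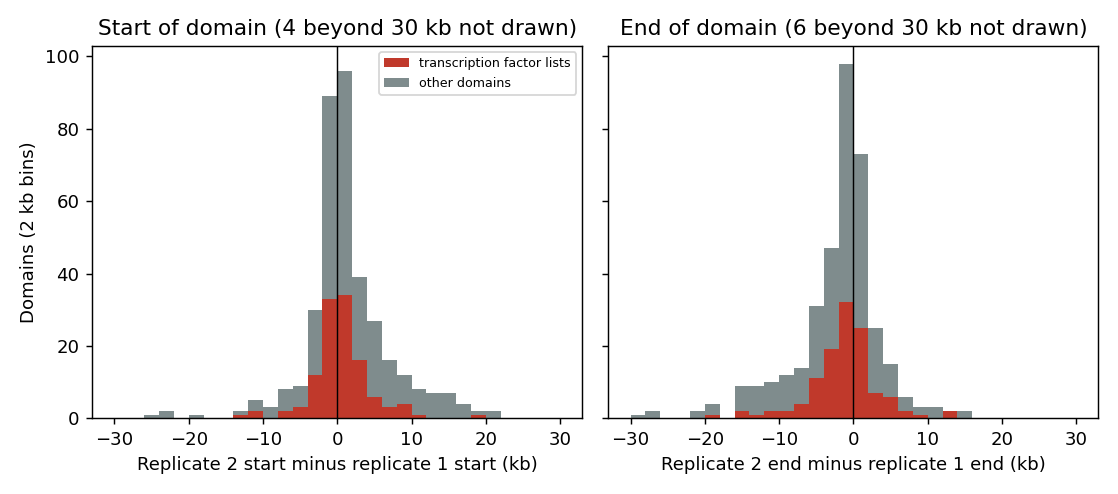
Distance of the replicate 2 start from the replicate 1 start (left) and of the replicate 2 end from the replicate 1 end (right), in kb (x axes), against the number of domains in 2 kb bins (y axis), for domains with a gene of the transcription factor lists (red) stacked with the others (grey), leaving out distances beyond 30 kb. Starts are drawn out to positive and ends to negative values, where replicate 2 is the shorter, with medians of 460.5 bp and -818.5 bp.

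**Figure D4:**
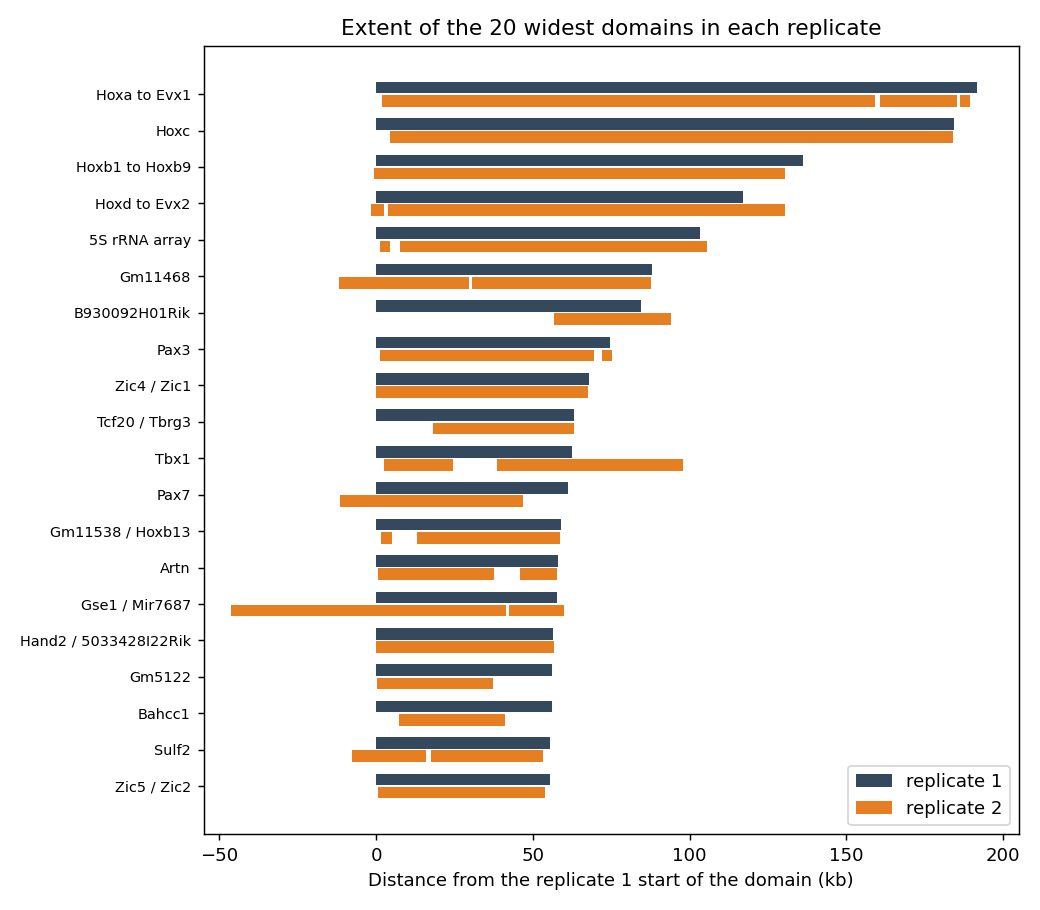
Extent of the 20 widest domains, from the widest at the top, in replicate 1 (dark) and in the replicate 2 regions that overlap them (orange), as distance in kb from the replicate 1 start. The Hoxc, Zic1 with Zic4, Pax3 and Hand2 domains are matched nearly end to end, while those of B930092H01Rik, Gse1 and Tbx1 differ by 56.8, 46.3 and 35.6 kb at an edge.

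Most domains met a single replicate 2 region. That held for 276 of 374 (73.8%, 69.0 to 78.2%), while 83 met 2 regions, 14 met 3 and 1, that of Tlx3, a homeobox gene of sensory circuits in the spinal cord, met 4. Among shared promoter regions under 20 kb the share with a single partner was 92.9%. Domains in 3 pieces included those of Pax2, a factor gene of kidney and ear (50.02 kb, 82.3% covered), of Irf8, a myeloid factor gene (44.0 kb, 70.3%), and of Socs3, a feedback inhibitor gene of cytokine signalling (34.4 kb, 82.7%). In the other direction, 3 replicate 2 regions each lay over 2 domains. Among them, a region of 59.6 kb on chromosome 16 reached from the domain of Tbx1, a factor gene of the pharyngeal arches, to that of Gp1bb with Sept5, and a region of 53.9 kb on chromosome 12 met those of Tnfaip2 and of Lbhd2 with Exoc3l4.

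The partner was classed as promoter in 349 domains (93.3%, 90.3 to 95.6%). In the other 25 it was gene body, distal or intergenic. Tfap2c, a transcription factor gene of surface ectoderm, had a domain of 24.4 kb in replicate 1 over the whole gene, and an intergenic region of 2.22 kb in replicate 2 that did not reach the gene and covered 9.08% of the domain. Foxa2, a forkhead gene of foregut endoderm that is also on the taste bud list, had 21.8 kb in replicate 1 and an intergenic region of 2.42 kb in replicate 2 (11.1% covered). Isl1, a LIM homeobox gene on the Merkel list, had 23.6 kb in replicate 1 and a distal region of 4.93 kb in replicate 2 (20.9% covered). The smallest cover was at Cabp1, a calcium-binding protein gene (22.2 kb, 2.16%). By the ratio of widths, the 5 lowest were Tfap2c, Foxa2, Jdp2, Cabp1 and 1700034G24Rik, and the highest included Flrt1, 5031425F14Rik, Lbhd2 with Exoc3l4 and Lgr6, with ratios of 2.96, 2.08, 1.95 and 1.89. Of the 654 names in the domains, 596 (91.1%, 88.7 to 93.2%) also stood in the overlapping replicate 2 regions, and 334 domains (89.3%) kept all their names. Regions of any class counted here, so a name was also kept where the region was distal, as at Cabp1 and Isl1. Names not carried over included Gnat1, a phototransduction gene, beside Slc38a3 (46.9 kb, 34.9% covered), and Kcnj9 beside Kcnj10 (44.2 kb, 36.2%).

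The domains named 649 distinct genes, of which 643 matched the reference: 494 names of protein-coding genes, 105 of long noncoding RNA genes, 30 of microRNA genes and a few of other kinds. A single name stood on 226 domains (60.4%), 2 names on 97 and 3 or more on 51, and 80 domains (21.4%) named several protein-coding genes. The most names, 22, were on the Hoxa domain, followed by those of Hoxb (13), Hoxc (12), Hoxd (12) and a cluster of interferon zeta genes including Ifnz on chromosome 4 (12). Counted once each, 493 protein-coding genes were named, 2.28% of the 21627 in the reference. Domains were not spread evenly over chromosomes. Chromosome 11 had 46, chromosome 2 had 43 and chromosome 4 had 38, or 12.3%, 11.5% and 10.2% of domains. These chromosomes hold 7.44%, 8.24% and 6.14% of protein-coding genes. The unevenness was smaller beside the promoter regions that the domains were drawn from. Domains were 16.3% of 283, 17.6% of 244 and 17.8% of 213 promoter regions there, against 13.8% of all 2701. Chromosome 13 had the highest such share (21.3% of 89). Chromosome 15, with the Hoxc cluster, had 25 (6.68%, with 3.59% of genes). Chromosome X had 1 domain among 35 promoter regions (0.267% of domains, with 4.47% of genes).

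Genes of the 12 transcription factor lists made up 159 of the 493 protein-coding genes named (32.3%, 28.1 to 36.6%). They make up 338 of the 21627 in the reference (1.56%) and 74 of the 1604 genes named by narrower shared promoter regions only (4.61%). In other terms, domains named 47.0% of the genes of these lists and 1.57% of the other protein-coding genes, set beside 2.28% of all. The lists were chosen with earlier results of these data known, and the other genes include transcription factor genes that no list held. Width separated the lists further: of genes named by any shared promoter region, 159 of 233 in the transcription factor lists (68.2%) had a domain of 20 kb or more, against 334 of 1864 others (17.9%). Within the domains the share of such genes was 64.6% for those of 40 kb or more, 24.2% for 30 to 40 kb and 23.8% for 20 to 30 kb. Width in replicate 1 chose the domains, so these shares describe the selection. The lists share regions within clusters, and genes in a cluster are not independent.

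**Figure D5:**
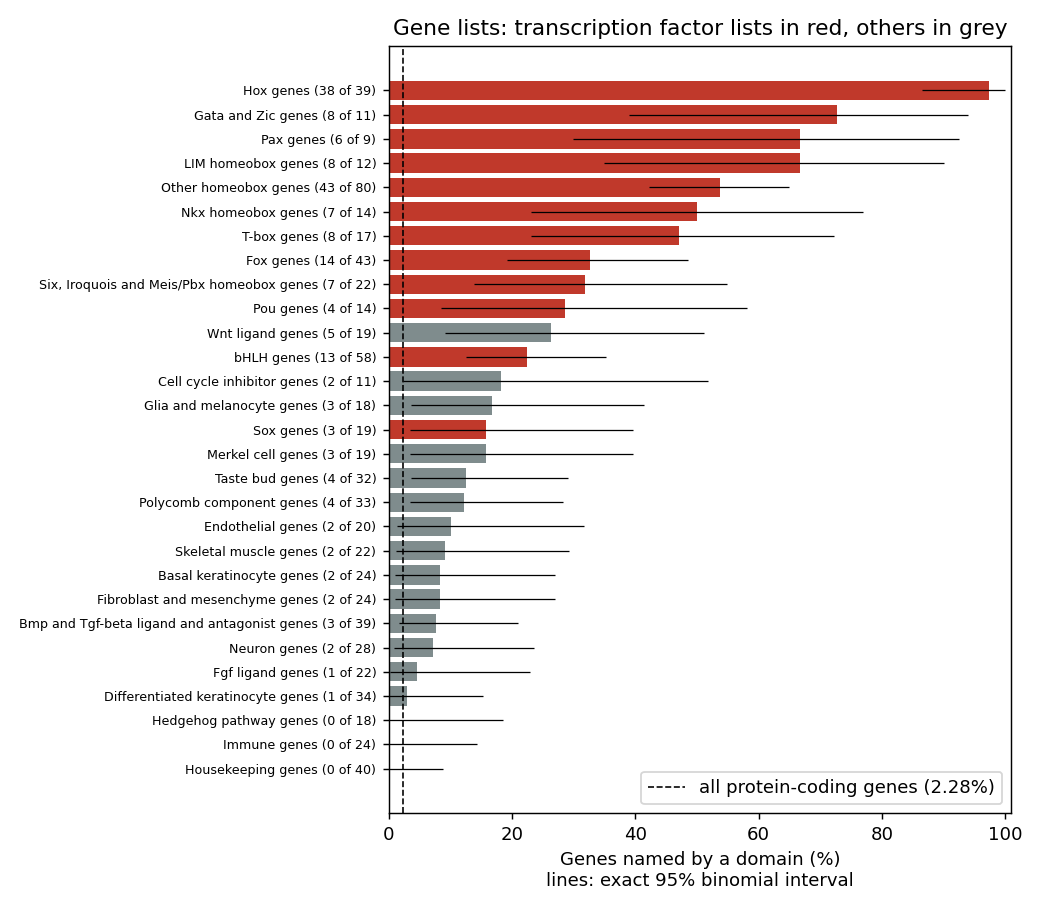
Share of the genes of each list named by a broad promoter domain (x axis, %), with the count and the list size beside each name, transcription factor lists in red and others in grey, and lines for exact 95% binomial intervals. The dashed line marks the 2.28% of all protein-coding genes, and the Hox list (38 of 39) and the lists of Gata and Zic genes (8 of 11), Pax genes and LIM homeobox genes stand highest.

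Hox genes, which pattern the body axis, had 38 of 39 members in 5 domains, and the exception, Hoxd1, was named by the replicate 2 region over the Hoxd domain. Of the clusters, the Hoxc domain was 184 kb in replicate 1 and 179 kb in replicate 2 in a single region, while the Hoxa domain of 192 kb was met by 3 replicate 2 regions that spanned 188 kb. The Hoxd domain ended 13.3 kb further out in replicate 2. Among Gata and Zic genes 8 of 11 were named, with Zic1 and Zic4, factor genes of the dorsal neural tube, in 1 domain (68.1 kb in replicate 1 and 67.6 kb in replicate 2, 99.2% covered), Zic2 and Zic5 in another (55.4 and 53.4 kb, 96.3%), and Gata4, a gene of heart and endoderm, in a domain of 46.7 kb that replicate 2 covered in full. Gata3 was less fully covered (41.8 kb, 62.7%). Of 9 Pax genes 6 were named. The widest were Pax3 (74.5 and 74.0 kb, 94.8%) and Pax7 (61.4 and 58.3 kb, 76.2%), genes of muscle progenitors, and the narrowest were Pax1 (28.3 kb) and Pax5 (26.4 kb).

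Homeobox families outside the Hox and Pax lists were named in part. LIM homeobox genes had 8 of 12, led by Lhx2, a gene of eye and hair follicle (43.6 and 45.9 kb in replicates 1 and 2, 100% covered) and Lmx1b, a gene of the dorsal limb (33.9 kb in each, 89.2%). Nkx genes had 7 of 14, with Nkx2-1, a gene of thyroid and lung, widest (43.3 and 43.7 kb, 95.8%). Of 80 other homeobox genes 43 were named, and beside Evx1 and Evx2 at the Hox clusters the widest was the domain of Dlx5 and Dlx6, genes of craniofacial and bone development (48.5 and 47.4 kb, 90.2%). Gbx2 (47.1 and 32.4 kb, 66.8%) and Otx2 (45.6 and 32.1 kb, 70.3%), which meet at the border of midbrain and hindbrain, were wider in replicate 1 than in replicate 2. Genes of the Iroquois, Meis/Pbx and sine oculis (Six2, Six3 and others) families had 7 of 22 named, from Six3 (42.6 and 36.4 kb) to Irx2 (22.4 and 22.0 kb), and Pou genes 4 of 14: the neural factor genes Pou3f3, Pou3f2, Pou4f1 and Pou3f1.

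T-box genes had 8 of 17 named, with Tbx1 in 62.5 kb in replicate 1 and a replicate 2 span of 95.5 kb that left a gap (73.8% covered), and with Tbx2 (43.6 kb) and Tbx4 (22.4 kb) in neighbouring domains. Fox genes had 14 of 43, with Foxd1 (39.9 and 28.5 kb, 71.5%), Foxo6 (38.2 and 45.8 kb, 93.7%) and Foxd2 with Foxe3 (35.7 and 33.4 kb) widest. The bHLH genes had 13 of 58, led by Hand2 (56.6 and 56.7 kb, 99.9%) and by Neurod2, a gene of neuronal differentiation (53.0 and 44.6 kb, 84.1%). Sox genes had 3 of 19, the lowest share of these lists: Sox1 (38.5 and 44.1 kb), Sox21 (30.0 and 18.6 kb) and the neural crest gene Sox10 (24.998 and 23.6 kb). Other developmental transcription factor genes that no list held were seen among the domains after the values were known, including the nuclear receptor gene Nr2f1 (49.1 and 53.3 kb), the p53-family gene Trp73 (45.2 and 45.1 kb, edges 196 and 126 bp apart), Tfap2b (42.1 and 39.9 kb), Dmrt3 (36.1 and 34.0 kb) and Prdm12 (35.0 and 33.4 kb).

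Domains with a gene of the transcription factor lists were matched more fully in replicate 2 than the other domains were. The median cover was 90.2% (quartiles 81.5 and 96.4%) in these 118 and 79.4% (54.4 and 93.7%) in the other 256. Cover below 50% occurred in 4 of 118 (3.39%), at Six2, Dlx4, Isl1 and Foxa2, and in 54 of 256 others (21.1%). Median widths in replicate 1 were 28.7 and 26.7 kb, and median edge distances 1862.5 and 2426.5 bp, each in that order. Of the 159 genes of the transcription factor lists named, 137 (86.2%, 79.8 to 91.1%) were also named by a domain when the rule started from replicate 2. Among the 334 other genes, which include transcription factor genes that no such list held, 151 were (45.2%, 39.8 to 50.7%). In all, 288 genes were named from both directions, 58.4% of the 493 from replicate 1 and 74.8% of the 385 from replicate 2. Of the 159 genes of the transcription factor lists, 38 are Hox genes in 5 domains. Genes that share a domain are not independent, which the intervals do not take into account. All these values are descriptions of 2 libraries, and the share that signal strength or depth has in them was not tested.

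Genes of the transcription factor lists were short and lay whole inside their domains more often. Of the 493 protein-coding genes, 289 (58.6%) lay whole within the domain. They were 131 of 159 genes of the transcription factor lists (82.4%, 75.6 to 88.0%) and 158 of 334 others (47.3%, 41.8 to 52.8%). The others include transcription factor genes outside these lists. Replicate 2 covered the full length of 125 of those 131 genes (95.4%) and of 105 of those 158 (66.5%). Here too 38 of the 159 are Hox genes in 5 domains, so the intervals treat as independent genes that are not. The median gene length was 5.85 kb for the named genes of the transcription factor lists and 13.5 kb for the others named. It was 6.16 kb for all genes of the transcription factor lists and 17.3 kb for all protein-coding genes. Neurog2, 2.90 kb long, had 12.3 kb of domain beyond one end and 13.5 kb beyond the other. Where a domain named 1 protein-coding gene and held it whole, as in 134 of 265 such domains, it reached a median of 6.59 kb beyond the nearer end of the gene and 12.4 kb beyond the farther. Long genes were covered in part: Pax3 (95.9 kb) for 43.5% in replicate 1 and 42.1% in replicate 2, and Flt1, a receptor gene of vessel growth (165 kb), for 8.82% and 7.16%.

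The counts of the other lists are to be read beside the 2.28% of all protein-coding genes named, and for most of them the interval on the share includes it. It lies above 2.28% for the Wnt, Polycomb, taste bud, Merkel, and glia and melanocyte lists, and narrowly for the cell cycle inhibitors. The lists were chosen with earlier results of these data known, so these intervals are descriptions and give no test of any list. Wnt ligand genes had 5 of 19 named (26.3%, 9.15 to 51.2%). Wnt6 and Wnt10a shared a domain of 28.9 kb in replicate 1 and 43.4 kb in replicate 2 that covered none of the Wnt10a gene itself in replicate 1 and all of it in replicate 2. Wnt11 (28.2 and 24.4 kb, 86.4%), Wnt3 (24.6 and 20.02 kb, 81.5%) and Wnt7b (25.7 and 12.1 kb, 47.3%) had domains of their own. Bmp and Tgf-beta ligand and antagonist genes had 3 of 39 (Inha, Gdf6 and Inhbb) and Fgf ligand genes 1 of 22 (Fgf15). Of the 18 genes of the Hedgehog list 0 were named, which allows a share of up to 18.5%. The intervals of these 3 lists include 2.28%. Of 33 genes of Polycomb components 4 were named (12.1%, 3.40 to 28.2%). Among them were Pcgf1, a PRC1 subunit gene, and Cbx8 and Cbx2, which encode readers of Polycomb histone marks and lie near each other on chromosome 11. The name Cbx8 stood on 2 domains. One, of 33.2 kb, lay beside the gene, overlapped no annotated protein-coding gene and was 99.8% covered in replicate 2. The other, of 23.6 kb, lay over Cbx2 and Cbx8, and replicate 2 covered 29.8% of it, in a region without the name Cbx2. Cdkn2a and Cdkn2b, the cell cycle inhibitor genes that Polycomb is known to silence, shared a domain of 50.6 kb in replicate 1 and 50.1 kb in replicate 2 (97.3%).

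Basal keratinocyte genes had 2 of 24 named, Krt15 and Tfap2c (8.33%, 1.03 to 27.0%), and differentiated keratinocyte genes 1 of 34, Krt13 (2.94%, 0.0744 to 15.3%). Both intervals include the 2.28% of all protein-coding genes. Krt13 and Krt15 shared a domain of 23.5 kb in replicate 1, while replicate 2 had a region of 8.03 kb that named Krt13 and one of 20.6 kb that named Krt15 with Krt19, together 81.9% of the domain. Taste bud genes had 4 of 32 named (12.5%, 3.51 to 29.0%). Lgr6, a receptor gene of epithelial progenitors, had 21.7 kb in replicate 1 and 41.0 kb in replicate 2, over 8.78% and 24.6% of the gene. Plcb2, a phospholipase gene of taste transduction, shared 47.1 kb with Ankrd63 in replicate 1. In replicate 2 the main region, 28.8 kb, named Ankrd63 and a gene body region of 2.72 kb named Plcb2, and 78.3% of the Plcb2 gene was covered, against 100% in replicate 1. The others were Nkx2-2 (27.0 and 26.9 kb, 90.9%) and Foxa2. Merkel cell genes had 3 of 19 (15.8%, 3.38 to 39.6%): Gfi1 (29.3 and 23.3 kb, 79.5%), Insm1 (26.6 and 24.6 kb, 86.5%) and Isl1. All 3 are transcription factor genes. Of the taste bud genes named, Nkx2-2 and Foxa2 also belong to the transcription factor lists, and replicate 2 covered 11.1% of the Foxa2 domain. The taste bud and Merkel intervals lie above 2.28%, and intervals without the transcription factor genes were not worked out.

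In the lists of cell types outside the sort, Pax3, Pax7, Foxd3, Sox10 and Foxf1 among the named genes also belong to the transcription factor lists. Skeletal muscle genes had 2 of 22 named (9.09%, Pax3 and Pax7) and glia and melanocyte genes 3 of 18 (16.7%, Pax3, Foxd3 and Sox10). Neuron genes had 2 of 28 (7.14%, among them Ntrk3, a neurotrophin receptor gene). Fibroblast and mesenchyme genes had 2 of 24 (8.33%, Foxf1 and Snai1), and endothelial genes 2 of 20 (10%, Egfl7 and Flt1). Of these lists, the intervals include 2.28% for all but glia and melanocyte genes (3.58 to 41.4%), whose named genes are all transcription factor genes. The basal and differentiated keratinocyte lists, by comparison, had shares of 8.33% and 2.94%. Of the immune list (24 genes) and the housekeeping list (40 genes) 0 were named, which allows shares of up to 14.2% and 8.81%, ranges that hold the 2.28% of all protein-coding genes. Ntrk3 (25.4 and 9.67 kb, 34.2%) was wider in replicate 1 than in replicate 2, where the region was classed as gene body.

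The 29 domains that named no protein-coding gene (7.75%) comprised repeated genes, microRNA hosts and long noncoding RNA genes. The widest lay over the 48 annotated 5S ribosomal RNA genes on chromosome 8 (103 kb in replicate 1 and a span of 104.5 kb in replicate 2, 95.9% covered). Among all 374 domains, 6 lay over 3 or more annotated rRNA, tRNA or snRNA genes, and replicate 2 covered 95.9 to 100% of each. Those of BC107364 and Prss16 named a protein-coding gene and so are not among the 29. Of these 6, 3 lay next to each other on chromosome 3 between 96319989 and 96466556, with 6, 5 and 8 tRNA genes and 2, 1 and 3 snRNA genes, and another, named for Mir6546 on chromosome 1, held 15 tRNA genes. A pair of domains on chromosome 6 carried the name Rn4.5s (40.6 and 36.4 kb, 99.9% covered each). Genes of such arrays have near-identical copies, the treatment of reads with several matches is not given in the sources used here, and the input was not analysed, so the signal over them is uncertain. Other domains that named no protein-coding gene included Gm11468 (87.9 kb, 98.4% covered), B930092H01Rik (84.4 kb, 32.7%) and Gm5122 (56.2 kb, 65.9%). These held no annotated rRNA, tRNA or snRNA gene.

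Domains also stood near each other. Of the 374, 77 (20.6%) had another domain within 100 kb, in 34 groups of 2 or 3. Groups of related genes included Tbx2 with Tbx4, Six3 with Six2, Nkx2-1 with Nkx2-9, Dmrt3 with Dmrt2, and Foxf1 with Foxc2 and Foxl1. In the last group the Foxf1 domain measured 30.3 kb in replicate 1 and 26.9 kb in replicate 2, and that of Foxc2 and Foxl1 28.1 and 25.5 kb. Pdx1, a pancreas gene, and Cdx2, an intestinal gene, had replicate 1 domains of 22.6 and 33.1 kb within a stretch of 58.8 kb. Tlx1 and Lbx1, both homeobox genes, stood in a group of 111 kb in all. Elsewhere the neighbours were not of 1 family, as for Sulf2 with Gm11468 and 5031425F14Rik (360 kb).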

How the data were processed

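For each H2AK119ub replicate a list of called regions was read as deposited by the authors, with chromosome, start, end, location class and gene names, per the file headers. The submitters' processing notes name mm10, Bowtie2 2.3.3 and SAMtools 0.1.19 with no role. The sources used here give neither the peak caller and its settings nor how the input entered, whether starts count from 0, or how classes were assigned. Per the labels' protocols, 4 ng of DNA went into each library. Widths are end minus start. The lists read here hold no height or count, so no depth or strength could be set beside a width, and neighbouring stretches joined in the authors' calling may stand as 1 region.

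Domains were found by class, width of 20 kb or more and overlap of 1 bp, and their replicate 2 counterparts were measured as the span, the widest region, the share of domain length covered and the edge distances. Names were matched by symbol, then by a synonym of 1 gene, to the RefSeq annotation of GRCm38.p6 (mm10). Promoter windows and mature microRNAs are RefSeq's. The members and the 29 gene lists were chosen with earlier results of these data known, so list counts are descriptions without a test. Named domains followed a rule: the 10 widest, up to 4 per list (all in epithelial lists), the extremes of ratio and of edge distance, those at the 20 kb limit, the most names, X and unshared broad regions. Some results under this rule are not reported here. Others were named after their values were seen, and 2 of the 8 promoter windows selected are not shown. The measures returned the known values on simulated lists. Alternatives were other widths, an overlap of 50%, the rule started from replicate 2, leaving out X, each replicate or domains over small RNA genes, and the widest counterpart. Tools were matplotlib 3.10.9, pandas 2.3.3, scipy 1.17.1 and numpy 2.4.6 under Python 3.11.15.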

Additional observations from a re-analysis of the deposited data

How the results depend on the processing

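No paired analysis was possible because the 2 replicates form 1 group and no contrast was tested. Values are given below where a share left its exact binomial interval, a count moved by over 1.5 times or a median moved by at least the SD of its 2 values with the rule started from either replicate. That SD is smaller than the difference it is made from, so a median under the rule started from replicate 2 always lies outside it. A minimum width of 10 kb gave 985 domains and 1418 names, a median replicate 2 span of 15.6 kb, a median edge distance of 2063 bp, 81.3% with a single replicate 2 region and 19.01% of protein-coding names in the transcription factor lists. A minimum of 30 kb gave 148 domains and 315 names, a span of 33.6 kb, 66.2% with a single region and 42.5% in the transcription factor lists. With an overlap of 50% of both regions the edge distance was 2065 bp and each domain had a single partner (100%, by construction). A promoter partner was present for 96.5%, and 93.3% of names were kept. Of protein-coding names 39.6% were in the transcription factor lists. With the rule started from replicate 2 the median span in the other replicate was 29.0 kb, the median cover 95.2% and the edge distance 2065 bp. Of these domains 81.6% had a single partner and 97.9% a promoter partner. They kept 95.1% of names, and 38.7% of protein-coding names were in the transcription factor lists. With the widest counterpart in place of the span, the width was 22.6 kb and the edge distance 2805 bp. Leaving out a replicate gave 288 to 396 domains, 523 to 677 names and 30.7 to 37.7% of protein-coding names in the transcription factor lists. Leaving out X, or, as chosen after seeing the data, the 6 domains over small RNA genes, moved no result beyond these bounds. The comparison of promoter CpG content was not run. No depth or signal over background is known, which limits what a difference in width between replicates can show.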
